A study of Mus musculus with 48 samples.

Results

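Neuron-enriched cultures from the dorsal root ganglia (DRG) of adult mice, where the somata of sensory neurons lie, were given synthetic mRNA encoding the transcription factor Atf4 or, as the control, synthetic mRNA encoding green fluorescent protein (GFP). The comparison holds 8 of the 48 libraries of the series, the 4 that carry the label Atf4 mRNA and the 4 that carry the label GFP mRNA, and it covers every gene of their table. Of 34183 genes in the table, 13857 had enough counts to be tested. The series knocked down or overexpressed factors that respond to axon injury. Both groups are wildtype, were kept in Neurobasal-A medium with B27, were transfected with Dharnafect 2 right after the cells were isolated, and were harvested 42 h after isolation. The GFP libraries therefore share with the Atf4 libraries the injury of dissociation, the time in the dish, the transfection and the exposure to a foreign mRNA. A further group of 4 libraries with Atf4 mRNA and Cebpg mRNA together, and the groups given control siRNA (siCONTROL) or siRNA against Atf4 (siAtf4), were used for context. Nothing in the labels says that replicates came from different animals or cultures, so p-values cover only the spread among these libraries, which may be technical.

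Atf4 is a basic leucine zipper transcription factor and the main effector of the integrated stress response. Kinases that sense amino acid shortage, unfolded protein in the endoplasmic reticulum (ER), viral RNA or heme shortage phosphorylate the translation factor eIF2alpha, general translation falls, and the Atf4 transcript, whose reading frame sits behind upstream reading frames, is then translated more. Atf4 binds DNA as a dimer, often with a C/EBP family member such as Cebpg, at the C/EBP-ATF response element, and is best known for driving genes of amino acid synthesis and import, tRNA charging, redox balance and feedback on the stress response itself. In DRG neurons the transcript belongs to the set of injury-responsive factors together with Atf3, Jun and Stat3.

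Library totals ran from 4339416 to 5959173 expected counts with GFP mRNA and from 3782162 to 5154019 with Atf4 mRNA. Correlations of log2 CPM (each count as a share of its library total, rescaled between libraries) were between 0.964 and 0.969 among GFP libraries, 0.958 and 0.963 among Atf4 libraries, and 0.95 and 0.961 across the groups. All 16 pan-neuronal markers were tested, and their summed level was 14718 to 18336 CPM with GFP mRNA and 13686 to 16040 CPM with Atf4 mRNA. Markers of satellite glia, Schwann cells, fibroblasts and endothelium were present too, while 9 of 12 macrophage markers were too low to be tested and C1qc was at 0 in all 8 libraries. RNA was measured in bulk, so fewer cells of a type and less RNA per cell cannot be told apart in any of the results below.

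The transfected gene itself was far higher. Atf4 stood at 647, 706, 641 and 574 CPM in the 4 GFP libraries and at 8893, 14334, 18305 and 15048 CPM in the 4 Atf4 libraries. The groups were far apart, and the lowest of the 4 Atf4 libraries was replicate 1. Mean levels were 642 ± 53.6 and 14145 ± 3905 CPM (SD, n = 4 each), a 22.0-fold rise (log2 fold change 4.46 ± 0.32, SE; adjusted p 6.83e-06, edgeR). The counts do not separate the transfected Atf4 mRNA from the cells' own transcript, and protein was not measured. Cebpg, the dimer partner, was at 46.6 ± 5.72 CPM with GFP mRNA and 52.4 ± 5.87 CPM with Atf4 mRNA (SD, n = 4; adjusted p 0.746, edgeR).

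Among the other factors that the series knocked down, Jun was lower with Atf4 mRNA. Its levels were 300, 304, 271 and 302 CPM with GFP mRNA and 222, 215, 199 and 200 CPM with Atf4 mRNA, with no overlap (log2 fold change -0.49 ± 0.07, SE; adjusted p 0.00235, edgeR). Atf3 was at 1248 ± 118 CPM with GFP mRNA and 1001 ± 71.6 CPM with Atf4 mRNA and did not pass (adjusted p 0.0546, edgeR). It did pass, as lower, when Atf4 replicate 1 or GFP replicate 3 was left out. Stat3, Klf6, Rest and Alyref did not pass either, with log2 fold changes from -0.13 for Stat3 to 0.34 for Rest.

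Across all genes tested, 382 were higher (2.76%) and 289 lower (2.09%) with Atf4 mRNA at an adjusted p under 0.05, 671 in either direction (4.84%). The genes that rose and those that fell differed in level and size of change. Median GFP levels were 11.6 CPM for the risen genes, 110 CPM for the fallen genes and 21.9 CPM for all genes tested. At least 2-fold changes were seen in 159 of the risen and 43 of the fallen genes. Of the risen genes, 53 had a mean under 1 CPM with GFP mRNA, as did 215 of all genes tested, and 6 had no count in any GFP library. Genes this low with GFP mRNA had enough counts to be tested only through libraries with Atf4 mRNA, alone or with Cebpg mRNA. They were thus admitted through groups where they were high, so the 53 and the 215 are no evidence of a direction. Among the 9507 genes at 10 CPM or more with GFP mRNA, 206 rose (2.17%) and 276 fell (2.9%), and 18 and 32 of them changed at least 2-fold. The 4 and 4 CPM values did not overlap in 366 of the 382 risen and 277 of the 289 fallen genes, beside 895 genes (6.46%) that were separate on the higher side and 930 (6.71%) on the lower side among all tested. Replicate numbers were left out of this fit. With them as a block, 509 genes were higher and 519 lower. Single libraries moved the 382 and the 289 by more than 1.5 times. The risen genes numbered 228 without Atf4 replicate 2, 214 without Atf4 replicate 4 and 249 without GFP replicate 1. The fallen genes numbered 161, 166 and 125 without Atf4 replicates 2, 3 and 4, and 161, 152 and 178 without GFP replicates 1, 2 and 4. Below, a call that was lost when 1 library was left out is given with each such library, named by group and replicate number, and the range of adjusted p (edgeR) without them.

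**Figure D1:**
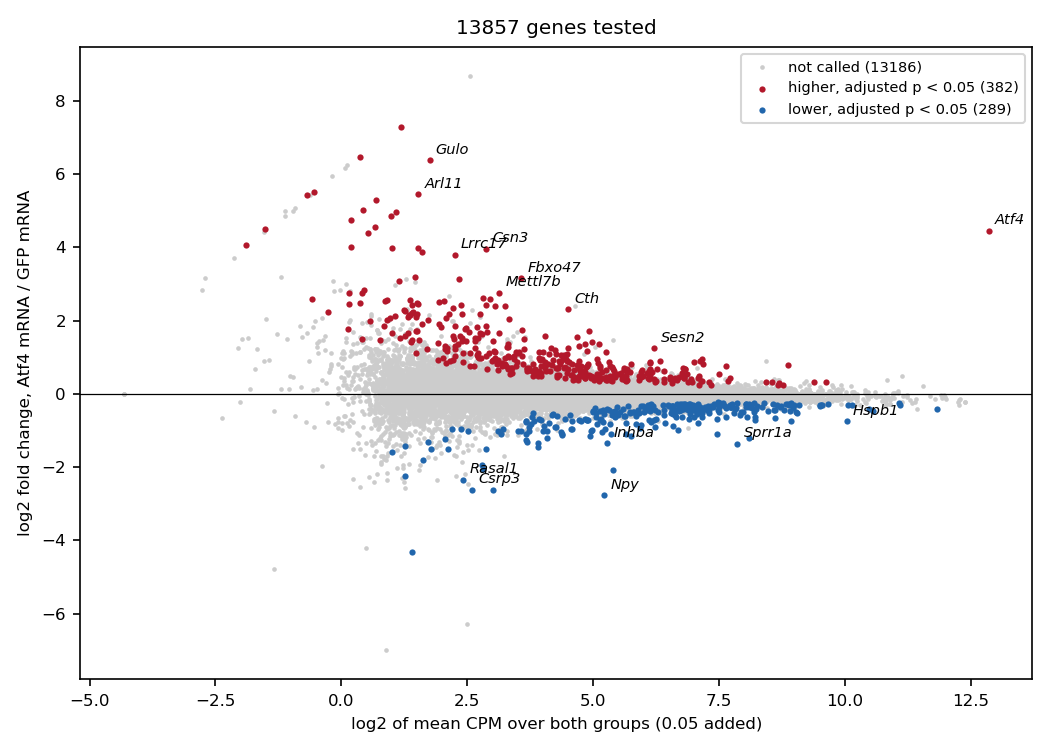
Each point is 1 of the 13857 genes tested, with the log2 of its mean CPM over the 8 libraries on the x axis (0.05 added) and its edgeR log2 fold change, Atf4 mRNA over GFP mRNA, on the y axis; the 382 higher genes are red and the 289 lower genes blue. Large rises lie mostly at low levels, except for Atf4 itself at the far right, and most falls lie at middle and high levels. Genes very low with GFP mRNA were tested only if another group had enough counts, so the low end is partly set by the filter.

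Genes known to stand under the integrated stress response rose in part. The promoters of 4 genes are shown first, because their genes rose and hold the core letters of the C/EBP-ATF response element (TGATGNAA, or TTNCATCA read on the other strand) within 250 bases before the start of transcription. These are the genes with the smallest p among the named ones that meet this description. Promoters on a single chromosome were left out of this choice, and the first matching promoter of each gene was taken. The letters are those of RefSeq on the mouse build GRCm38.p6, 5′ to 3′ along the gene, with the matches in capitals.
Lrrc17: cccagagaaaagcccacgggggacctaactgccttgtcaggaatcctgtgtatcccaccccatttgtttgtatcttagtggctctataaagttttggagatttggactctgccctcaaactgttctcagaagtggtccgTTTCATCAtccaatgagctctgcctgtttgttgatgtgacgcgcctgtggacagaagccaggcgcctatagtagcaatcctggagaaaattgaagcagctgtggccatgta
Herpud1: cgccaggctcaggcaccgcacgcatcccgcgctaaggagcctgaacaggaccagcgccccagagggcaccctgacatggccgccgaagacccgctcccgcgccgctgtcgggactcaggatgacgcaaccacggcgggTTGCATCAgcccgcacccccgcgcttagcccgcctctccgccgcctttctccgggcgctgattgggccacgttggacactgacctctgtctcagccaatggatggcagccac
Chac1: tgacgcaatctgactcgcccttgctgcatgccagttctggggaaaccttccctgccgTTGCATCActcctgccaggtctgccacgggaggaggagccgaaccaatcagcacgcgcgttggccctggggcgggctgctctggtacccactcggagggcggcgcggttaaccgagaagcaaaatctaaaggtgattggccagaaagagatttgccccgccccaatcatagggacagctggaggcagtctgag
Slc7a11: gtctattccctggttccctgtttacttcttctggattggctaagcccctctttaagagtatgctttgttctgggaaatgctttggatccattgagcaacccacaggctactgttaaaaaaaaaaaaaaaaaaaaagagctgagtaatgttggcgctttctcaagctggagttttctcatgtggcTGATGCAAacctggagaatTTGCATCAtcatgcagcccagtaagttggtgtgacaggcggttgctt

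The windows are chr5:21543277-21543526 (Lrrc17, plus strand), chr8:94386179-94386428 (Herpud1, plus strand), chr2:119350992-119351241 (Chac1, plus strand) and chr3:50443614-50443863 (Slc7a11, minus strand). The match lay 104 to 111 bases before the start in Lrrc17, 105 to 112 in Herpud1 and 186 to 193 in Chac1. Slc7a11 held 2 matches, at 59 to 66 bases on the gene's strand and at 40 to 47 bases on the other strand. A match is a description of the letters, not a site shown to be bound. Of all 32851 promoters in the RefSeq table, 3.45% hold the letters on either strand in a window of that length. The table has a promoter for 281 of the 382 risen genes (73.6%), under the 80% that a comparison of shares would need, so that comparison was void.

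Of 17 stress response regulators tested, 4 rose and 0 fell, and the median log2 fold change was 0.17 beside 0.00 over all genes tested. Over all genes tested, 2.76% rose and 2.09% fell, the shares to set beside this and each list count below. All lists were chosen with earlier results of these data known, so their counts and medians describe and are not independent evidence of a direction. Sesn2, which restrains mTORC1 when leucine is short, was at 43.2, 47.5, 41.1 and 43.3 CPM with GFP mRNA and at 90.9, 116, 91.6 and 120 CPM with Atf4 mRNA. Every Atf4 library was close to or above 2 times any GFP library (2.39-fold; log2 fold change 1.26 ± 0.11, SE; adjusted p 1.93e-05, edgeR). Herpud1, a membrane protein of ER-associated degradation whose promoter is shown above, went from 105 ± 6.99 to 184 ± 17.8 CPM (SD, n = 4; adjusted p 7.16e-05, edgeR). Chac1, which breaks down glutathione, was at 140, 151, 148 and 145 CPM with GFP mRNA and at 209, 215, 224 and 204 CPM with Atf4 mRNA. The groups were tight and did not overlap, for a 1.46-fold rise (adjusted p 0.00147, edgeR). Vldlr, a lipoprotein receptor, rose by 0.61 on the log2 scale (adjusted p 0.0154, edgeR) and lost the call without Atf4 3 or GFP 1 (adjusted p 0.0503 and 0.0527). Trib3, a pseudokinase that feeds back on Atf4, was at 34.4 ± 4.39 and 47.3 ± 7.91 CPM (SD, n = 4) and did not pass (adjusted p 0.0637, edgeR). It did pass, as higher, without Atf4 1 or GFP 3. Ddit3, which encodes CHOP, was at 584 ± 75.6 and 512 ± 26.0 CPM (SD, n = 4; adjusted p 0.289, edgeR).

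All 5 secreted stress factors had a positive fold change, and 3 of them passed, with a list median log2 fold change of 0.87. Stc2, a secreted glycoprotein, was at 3.98, 2.25, 2.68 and 3.66 CPM with GFP mRNA and at 10.01, 10.98, 11.2 and 13.3 CPM with Atf4 mRNA, a 3.62-fold rise with no overlap (adjusted p 0.000682, edgeR). Vegfa, the endothelial growth factor, rose by 0.57 and Adm2, a peptide of the calcitonin family, by 0.87 on the log2 scale. The call of Vegfa (adjusted p 0.0268) was lost without Atf4 2, 3 or 4 or GFP 1, 3 or 4 (0.0512 to 0.0825). That of Adm2 (adjusted p 0.0307) was lost without Atf4 1, 2 or 4 or GFP 1, 2 or 4 (0.0587 to 0.0955). Without Atf4 2, Atf4 4, GFP 1 or GFP 4, Stc2 was therefore the 1 member left. Fgf21 and Gdf15, hormone-like factors, had log2 fold changes of 0.88 and 0.35 with adjusted p of 0.255 and 0.347. Of 10 eIF2alpha kinases and phosphatases, Ppp1r15b, a subunit of the phosphatase that reverses the modification, was the only one to pass (42.7 ± 2.89 and 56.5 ± 4.51 CPM, SD, n = 4; adjusted p 0.0213, edgeR). Its call was lost without Atf4 1, 2 or 4 or GFP 2 or 4 (adjusted p 0.0525 to 0.0691). Of 20 other ATF and C/EBP factors, only the ER stress sensor Atf6 passed (log2 fold change 0.37, adjusted p 0.0466, edgeR), and it lost the call without Atf4 1, 2 or 4 or GFP 1, 2 or 3 (0.0854 to 0.121).

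**Figure D2:**
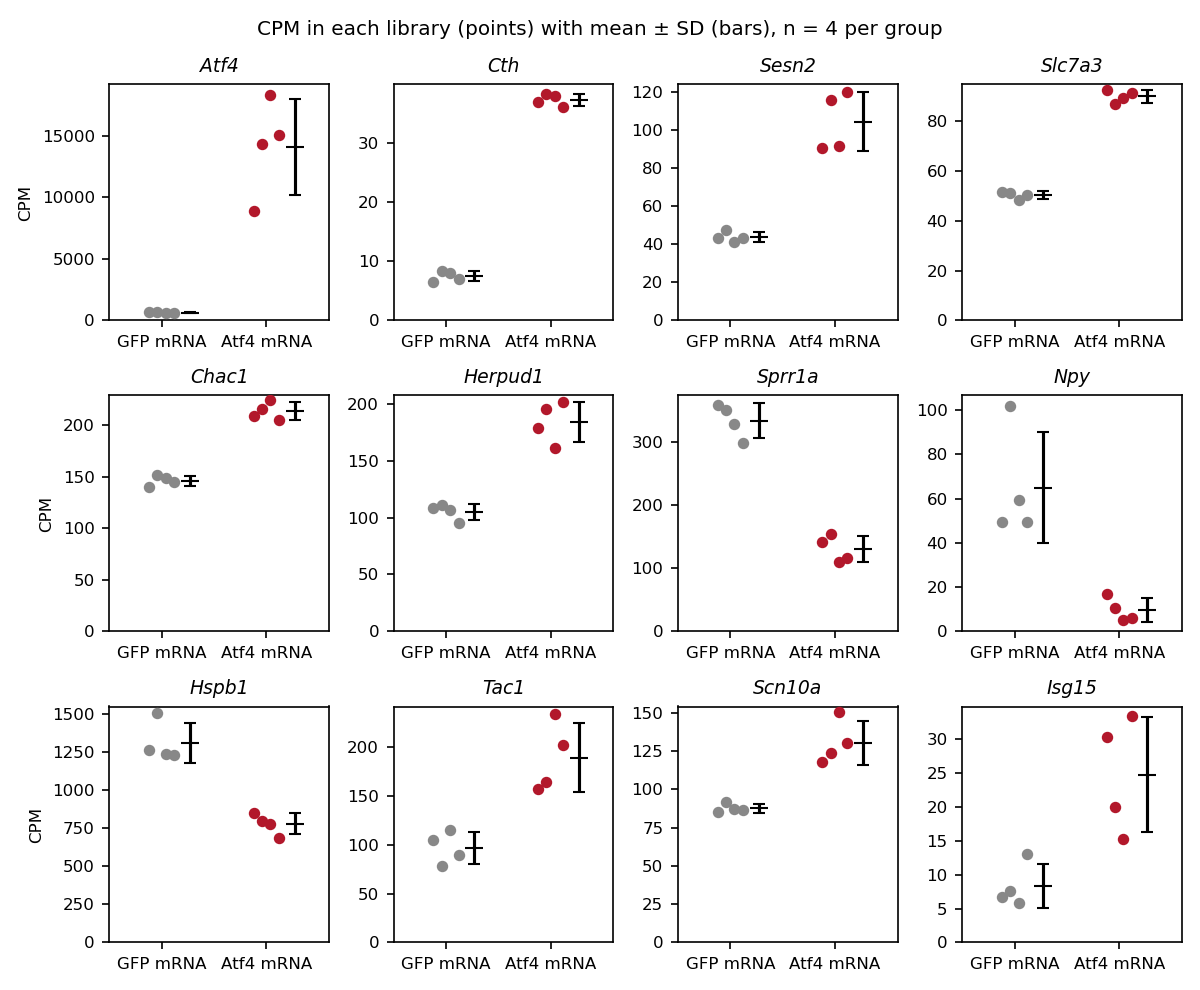
CPM of 12 genes in each of the 4 GFP mRNA (grey) and 4 Atf4 mRNA (red) libraries, with the mean and SD as a bar beside the points; every y axis starts at 0. In all 12 panels the values of the groups do not overlap, with the widest gap for Atf4 (at most 706 against at least 8893 CPM) and a narrower one for Isg15 (at most 13.1 against at least 15.3 CPM).

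In amino acid synthesis the clearest rise was that of Cth, and several well known Atf4 targets did not pass. Cth, which makes cysteine from cystathionine, was at 6.5, 8.32, 8.04 and 7.1 CPM with GFP mRNA and at 37.0, 38.3, 38.1 and 36.2 CPM with Atf4 mRNA. The 4 Atf4 libraries were nearly equal, and the rise was 4.96-fold (log2 fold change 2.31 ± 0.13, SE; adjusted p 7.60e-07, edgeR). Aldh1l2, a mitochondrial folate enzyme, went from 14.96 ± 1.90 to 29.0 ± 2.72 CPM (SD, n = 4; adjusted p 0.00123, edgeR). Shmt2, which splits serine in mitochondria, rose by 0.30 on the log2 scale (adjusted p 0.0286) and lost the call without Atf4 1, 2 or 3 or GFP 1 or 4 (0.0518 to 0.0931). Glul, glutamine synthetase, fell from 367 ± 43.7 to 224 ± 31.2 CPM (SD, n = 4; adjusted p 0.00546, edgeR). Got1, the cytosolic aspartate aminotransferase, fell by 0.34 on the log2 scale (adjusted p 0.0163) and lost the call without Atf4 3 or GFP 2 (0.0539 and 0.0561). In all, 3 of 14 genes tested rose, 2 fell, and the median log2 fold change was 0.19.

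A further 4 enzymes of that list were picked after their values were seen, since they are textbook Atf4 targets. Asns, asparagine synthetase, was at 377, 426, 403 and 410 CPM with GFP mRNA and at 427, 420, 458 and 430 CPM with Atf4 mRNA. These values overlap (log2 fold change 0.10 ± 0.06, SE; adjusted p 0.36, edgeR). Psat1 and Mthfd2, of serine synthesis and mitochondrial folate, had log2 fold changes of -0.17 and -0.03 (adjusted p 0.132 and 0.883), and Phgdh, the first enzyme of serine synthesis, 0.33 (adjusted p 0.0862). With siAtf4, by contrast, 13 of the 14 genes fell, among them Asns (2.001-fold lower), Phgdh (log2 fold change -1.59), Psat1 (-1.42) and Mthfd2 (-1.75).

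Of 12 amino acid transporters, 5 rose and 0 fell (median log2 fold change 0.27), beside 2.76% and 2.09% of all genes tested. Slc7a3, a carrier of arginine and lysine, was at 51.6, 51.3, 48.3 and 50.4 CPM with GFP mRNA and at 92.4, 86.7, 89.4 and 91.3 CPM with Atf4 mRNA. Both groups were tight, and the rise was 1.78-fold (log2 fold change 0.83 ± 0.07, SE; adjusted p 2.04e-05, edgeR). Slc7a11, the cystine/glutamate exchanger whose promoter holds the pair of matches, was at 21.0, 11.6, 20.2 and 19.7 CPM with GFP mRNA and at 35.4, 33.5, 47.8 and 45.9 CPM with Atf4 mRNA. It rose 2.25-fold with no overlap, GFP replicate 2 being the lowest (adjusted p 0.00291, edgeR). Its partner chain Slc3a2 went from 370 ± 5.55 to 456 ± 16.2 CPM (SD, n = 4; adjusted p 0.00816, edgeR). The rises of Slc38a2 and Slc7a1, carriers of small neutral and of cationic amino acids, were 0.33 and 0.24 on the log2 scale (adjusted p 0.0277 and 0.0427, edgeR). The call of Slc7a1 was lost without any 1 of the 8 libraries (adjusted p 0.0562 to 0.109). That of Slc38a2 was lost without Atf4 1, 3 or 4 or GFP 1, 2 or 4 (0.0505 to 0.0909), which left 3 of the 5 transporters in each of those cases. Slc7a5, the leucine carrier that pairs with Slc3a2, was picked after its values were seen and was at 130 ± 5.21 and 139 ± 3.501 CPM (SD, n = 4; adjusted p 0.527, edgeR).

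None of 20 cytosolic and none of 17 mitochondrial tRNA synthetases passed, with median log2 fold changes of -0.06 and 0.06 (edgeR). At an unadjusted p under 0.05, 1 cytosolic enzyme was higher and 5 were lower, and 1 mitochondrial enzyme was higher and 1 lower. DESeq2 called 0 in either list. The smallest p of the cytosolic enzymes belonged to Mars, the methionyl enzyme, at 45.9 ± 5.17 and 60.5 ± 5.80 CPM (SD, n = 4; adjusted p 0.0839, edgeR). With siAtf4, 13 of the 20 cytosolic enzymes fell.

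Of 19 genes for ER chaperones and degradation, 2 rose and 1 fell. Dnajb9, a co-chaperone of BiP, was at 97.5, 86.8, 91.2 and 88.6 CPM with GFP mRNA and at 163, 153, 164 and 181 CPM with Atf4 mRNA, without overlap (1.81-fold; adjusted p 0.000184, edgeR). Herpud1 was the other gene that rose. Sdf2l1, part of the chaperone network of the ER, fell from 109 ± 5.18 to 79.5 ± 7.13 CPM (SD, n = 4; adjusted p 0.0151, edgeR), with the call lost without Atf4 4 or GFP 2 (0.0534 and 0.0504). Hspa5, which encodes BiP and was picked after its values were seen, was at 1035 ± 70.9 and 1004 ± 60.2 CPM (adjusted p 0.781, edgeR). None of 11 mitochondrial chaperones and proteases passed in edgeR or DESeq2, and 1 was lower at an unadjusted p under 0.05.

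Among 12 genes of glutathione metabolism and the NRF2 response, 3 rose: Slc7a11, Chac1 and Hmox1. Hmox1, heme oxygenase, was at 319, 361, 327 and 365 CPM with GFP mRNA and at 487, 533, 645 and 691 CPM with Atf4 mRNA, a 1.72-fold rise without overlap (adjusted p 0.0024, edgeR). Srxn1, an NRF2 target that reduces peroxiredoxins, was at 1993 ± 112 and 1649 ± 107 CPM (SD, n = 4) and did not pass (adjusted p 0.0512, edgeR). Of 11 autophagy genes, the initiating kinase Ulk1 passed (log2 fold change 0.41; adjusted p 0.0154, and 0.0556 without Atf4 replicate 2, edgeR). Of 22 cholesterol synthesis genes, the sterol sensor partner Insig1 fell (log2 fold change -0.37; adjusted p 0.0425, edgeR), and its call was lost without Atf4 1, 2 or 4 or GFP 1, 2 or 3 (0.0576 to 0.12).

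Of 15 genes of apoptosis and p53, 0 rose and 3 fell. Pmaip1, which encodes the death-promoting BH3-only protein Noxa, was at 47.4, 44.4, 28.5 and 47.4 CPM with GFP mRNA and at 26.2, 18.3, 13.4 and 18.1 CPM with Atf4 mRNA. The lowest GFP value (replicate 3) was above the highest Atf4 value (replicate 1), and the fall was 2.22-fold (log2 fold change -1.15 ± 0.20, SE; adjusted p 0.00584, edgeR). Cdkn1a, the cell cycle inhibitor p21, and Ccng1, cyclin G, fell by 0.34 and 0.42 on the log2 scale (adjusted p 0.0216 and 0.0494, edgeR). The call of Cdkn1a was lost without Atf4 2, 3 or 4 or GFP 1 or 2 (adjusted p 0.0539 to 0.068). That of Ccng1 was lost without Atf4 2, 3 or 4 or GFP 1, 3 or 4 (0.0724 to 0.135). Without Atf4 2, 3 or 4 or GFP 1, Pmaip1 was thus the 1 member left.

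**Figure D3:**
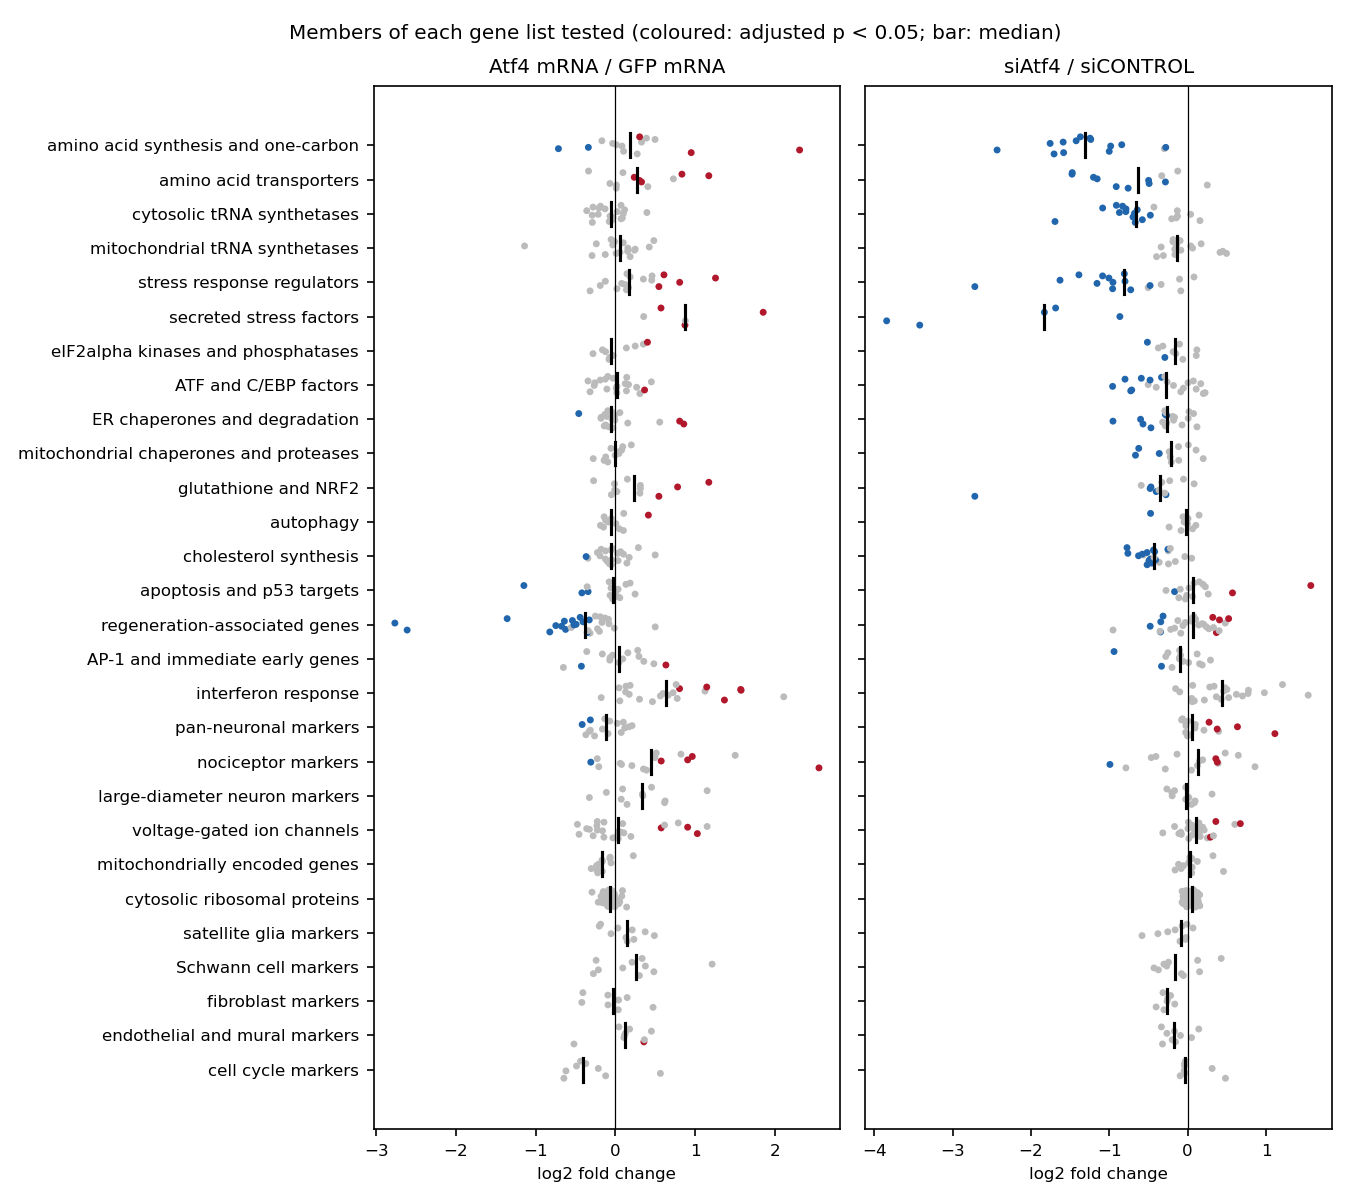
Each point is a tested member of 1 of 28 gene lists, placed at its edgeR log2 fold change for Atf4 mRNA over GFP mRNA (left) or siAtf4 over siCONTROL (right); red and blue points passed an adjusted p of 0.05, and the black bar is the list's median. The macrophage and red cell lists, with 3 and 2 genes tested, are left out. On the left the regeneration-associated genes lie mostly below 0 (median -0.38), and the amino acid and tRNA lists are near 0, while on the right the amino acid lists lie well below 0 (medians -1.31 and -0.63).

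The rises that were largest by fold were in genes nearly silent with GFP mRNA. Genes that low were mostly tested because other groups had enough counts, so this pattern is partly set by the filter. By the rule of at least 5 CPM in the higher group, a passed test and no overlap, 309 genes could be named as rises, and those described here, with Atf4, come from the 15 with the largest fold. Gulo, which encodes the last enzyme of vitamin C synthesis in mice, had 1 count over the 4 GFP libraries and 116 over the Atf4 libraries. It reached 6.16, 7.32, 5.91 and 6.89 CPM with Atf4 mRNA, a ratio of 130 with a 95% counting interval from 23.0 to 5194. Arl11, a small GTPase of the Arl family, had 2 counts against 101 (ratio 56.8, interval 15.3 to 475). These intervals cover counting error only.

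Csn3, which encodes the milk protein kappa-casein, was at 1.05, 1.21, 1.03 and 0 CPM with GFP mRNA and at 15.9, 17.0, 10.1 and 11.99 CPM with Atf4 mRNA (15.6-fold; adjusted p 6.17e-05, edgeR). Lrrc17, a secreted leucine-rich repeat protein whose promoter is shown above, was at 0.21, 0.867, 0.619 and 0.687 CPM with GFP mRNA and at 7.19, 9.05, 8.76 and 10.2 CPM with Atf4 mRNA (13.9-fold; adjusted p 8.26e-06, edgeR). In both genes every Atf4 library was far above every GFP library, but the naming rule requires a passed test and no overlap. Both genes were also tested only through libraries with Atf4 mRNA, alone or with Cebpg mRNA. Their separation and adjusted p are thus no independent evidence. Mettl7b, a methyltransferase-like protein, went from 2.18 ± 0.684 to 15.2 ± 2.27 CPM (SD, n = 4), and Fbxo47, an F-box protein, from 2.41 ± 1.79 to 21.3 ± 5.05 CPM. Pcdh20 (a protocadherin), Rwdd2a, Krt1 (a keratin), Tmem200b and Try5 (a trypsin) had group means of 0.326 to 2.09 CPM with GFP mRNA and 5.34 to 13.2 CPM with Atf4 mRNA. Saa3, an acute phase protein, and Gm2022, a predicted gene, also belonged to the 15. The call of Saa3 was lost without Atf4 2 or 4 or GFP 2 or 3 (adjusted p 0.0562 to 0.071), and that of Gm2022 without any 1 library other than GFP 3 (0.054 to 0.105).

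Of 28 regeneration-associated genes tested, 15 fell, 0 rose and 13 did not pass, beside 2.09% lower and 2.76% higher among all genes tested. The list's median log2 fold change was -0.38 beside 0.00 over all genes tested. The list was drawn from genes known to respond to nerve injury, but how its members moved in these libraries was already known when it was chosen, so the count and the median are a description and not independent evidence of a direction. Sprr1a, a small proline-rich protein induced in injured DRG neurons, was at 358, 351, 328 and 298 CPM with GFP mRNA and at 141, 154, 110.0 and 116 CPM with Atf4 mRNA. No value overlapped, and the fall was 2.56-fold (log2 fold change -1.36 ± 0.11, SE; adjusted p 1.27e-05, edgeR). Npy, a neuropeptide that injured sensory neurons begin to make, was at 49.3, 102, 59.2 and 49.5 CPM with GFP mRNA and at 16.9, 10.6, 5.04 and 5.87 CPM with Atf4 mRNA. It fell 6.81-fold, GFP replicate 2 being the highest (log2 fold change -2.77 ± 0.45, SE; adjusted p 0.00361, edgeR).

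Hspb1, a small heat shock protein, was at 1263, 1508, 1236 and 1229 CPM with GFP mRNA and at 852, 799, 781 and 687 CPM with Atf4 mRNA, 1.68-fold lower without overlap (adjusted p 0.000905, edgeR). Bdnf, a neurotrophin, fell from 51.4 ± 4.80 to 29.1 ± 3.41 CPM (SD, n = 4; adjusted p 0.000905, edgeR). Csrp3, a LIM protein found in regenerating neurons, fell from 10.3 ± 5.38 to 1.63 ± 1.21 CPM (adjusted p 0.0203), and lost the call without Atf4 1 or 2 or GFP 1 or 2 (0.0505 to 0.0673). Stmn4, a stathmin that acts on microtubules, fell from 442 ± 20.8 to 325 ± 10.6 CPM (adjusted p 0.00255, edgeR).

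The other members that fell were, beside Jun, Ecel1, Gpr151, Itga7, Sdc1, Sema6a, Plaur, Basp1 and Smad1, with log2 fold changes from -0.68 (Gpr151, an orphan receptor) to -0.33 (Smad1, an effector of BMP signalling). They include an endopeptidase-like protein (Ecel1), an integrin (Itga7), a syndecan (Sdc1), a transmembrane semaphorin (Sema6a), the urokinase receptor (Plaur) and a growth cone protein (Basp1). The call of Basp1 was lost without Atf4 2 or 4 or GFP 1 or 3 (adjusted p 0.0558 to 0.0643). That of Smad1 was lost without Atf4 2 or 4 or any 1 GFP library (0.0589 to 0.0943). Gap43, the growth cone protein, was the 1 member with a positive change, at 1965, 2200, 1898 and 1359 CPM with GFP mRNA and at 2295, 3506, 2250 and 2441 CPM with Atf4 mRNA. Every Atf4 library was above every GFP library, yet the test was not passed (adjusted p 0.336, edgeR). Atf4 replicate 2 was far above the rest, and without it the adjusted p was 0.592 (edgeR). Gal, a neuropeptide induced by injury, was at 229 ± 48.2 and 156 ± 48.7 CPM (SD, n = 4; adjusted p 0.144), and Sox11 at 45.8 ± 8.33 and 43.2 ± 7.11 CPM (adjusted p 0.849, edgeR).

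**Figure D4:**
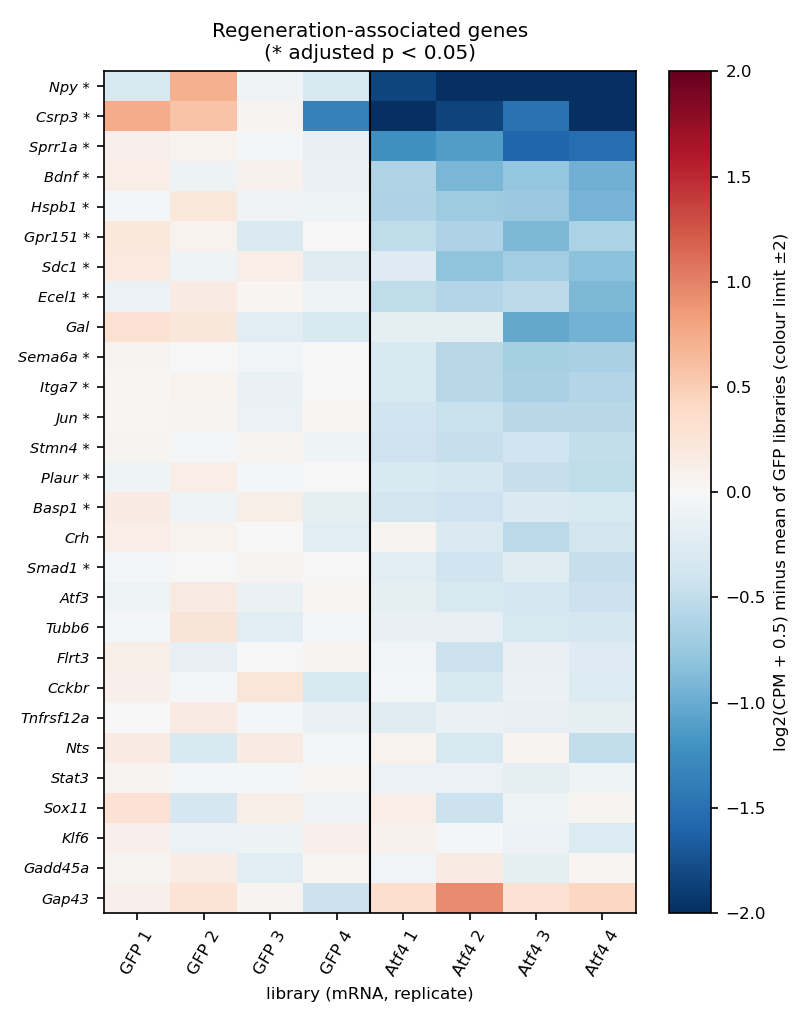
Rows are the 28 regeneration-associated genes tested, ordered by fold change, and columns are the 8 libraries; colour is log2(CPM + 0.5) minus the mean of the 4 GFP libraries, limited to ±2. The 15 genes marked with a star passed the test, and all 15 are lower with Atf4 mRNA, with Npy, Csrp3 and Sprr1a darkest and Gap43, at the bottom, the row that is most red.

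The largest falls outside that list were in genes of mixed function. Inhba, the activin beta A subunit, was at 61.6, 55.3, 63.9 and 41.2 CPM with GFP mRNA and at 32.3, 21.8, 14.2 and 19.9 CPM with Atf4 mRNA, 2.53-fold lower without overlap (adjusted p 0.00628, edgeR). The transcript 2210017I01Rik fell from 67.4 ± 24.8 to 15.99 ± 5.32 CPM (SD, n = 4; adjusted p 0.000866, edgeR). Aim2, a sensor of cytosolic DNA, fell from 10.9 ± 2.21 to 2.82 ± 0.717 CPM, and Rasal1, a Ras GTPase activator, from 8.90 ± 2.82 to 1.69 ± 1.16 CPM. Gm12002 and Fndc9 fell by 1.45 and 1.52 on the log2 scale. Pilra, an inhibitory receptor of myeloid cells, fell by 2.04 on the log2 scale (adjusted p 0.02) and lost the call without Atf4 2, 3 or 4 or GFP 2 (0.0607 to 0.081). Of 270 genes that could be named as falls by the same rule, these, with Npy, Csrp3 and Sprr1a, make up the 10 with the largest fold. Among 15 AP-1 and immediate early genes, Egr1 rose (log2 fold change 0.63, adjusted p 0.0341) and the phosphatase Dusp1 fell (-0.43, adjusted p 0.0232). Without Atf4 2 or 4 or GFP 1 or 4 both calls were lost, and without GFP 2 that of Dusp1 as well (adjusted p 0.0789 to 0.107 for Egr1 and 0.0508 to 0.0782 for Dusp1, edgeR).

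Some markers of pain-sensing neurons were higher with Atf4 mRNA. Of 16 nociceptor markers tested, 4 rose and 1 fell (median log2 fold change 0.44), beside 2.76% and 2.09% of all genes tested. This list too was chosen with earlier results known. Tac1, which encodes substance P, was at 105, 78.5, 116 and 89.5 CPM with GFP mRNA and at 157, 164, 234 and 202 CPM with Atf4 mRNA, 1.95-fold higher without overlap (adjusted p 0.00572, edgeR). Scn10a, the sodium channel NaV1.8 of nociceptors, was at 85.1, 92.0, 87.0 and 86.5 CPM with GFP mRNA and at 118, 124, 151 and 130 CPM with Atf4 mRNA, 1.49-fold higher without overlap (adjusted p 0.00913, edgeR). Scn11a, the sodium channel NaV1.9, went from 18.3 ± 3.61 to 34.3 ± 7.68 CPM and Mrgprd, a receptor of nonpeptidergic nociceptors, from 0.722 ± 0.298 to 4.35 ± 1.87 CPM (SD, n = 4; adjusted p 0.0127 and 0.00349, edgeR). At its GFP level, Mrgprd was tested only through libraries with Atf4 mRNA, alone or with Cebpg mRNA, so its rise is no evidence of a direction. Ret, the GDNF receptor, fell from 443 ± 44.6 to 357 ± 20.1 CPM (adjusted p 0.0416) and lost the call without any 1 library other than GFP 3 (0.0513 to 0.109). Calca, which encodes CGRP, and Trpv1, the capsaicin receptor, did not pass (log2 fold changes 0.39 and 0.51, adjusted p 0.0832 and 0.237); both were picked after their values were seen. Mrgpr genes are close relatives of each other and may exchange reads.

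Of 16 pan-neuronal markers, 0 rose and 2 fell (median log2 fold change -0.11). Stmn2, a stathmin of growing axons, fell from 1622 ± 140 to 1215 ± 88.0 CPM (SD, n = 4; adjusted p 0.0101, edgeR). Tubb3, neuronal beta tubulin, fell from 2418 ± 140 to 1944 ± 79.1 CPM (adjusted p 0.0206) and lost the call without Atf4 3 or 4 or GFP 2 (0.0539 to 0.0687). None of 11 markers of large-diameter neurons passed in edgeR (median log2 fold change 0.34), while 3 were higher at an unadjusted p under 0.05 and DESeq2 called 1 of them. Of 25 voltage-gated ion channels, Scn10a, Scn11a and the potassium channel gene Kcna2 rose and 0 fell. The median log2 fold change of the channels was 0.03, with 13 positive and 12 negative. Over all genes tested, 2.76% rose and 2.09% fell. Kcna2 went from 7.85 ± 1.10 to 15.99 ± 4.28 CPM (SD, n = 4; adjusted p 0.012, edgeR).

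Few markers of other cells passed. None of 10 satellite glia, 10 Schwann cell, 8 fibroblast and 3 macrophage markers tested passed, and their summed levels overlapped between the groups, for example 543 to 686 and 607 to 738 CPM for satellite glia. At an unadjusted p under 0.05, 1 satellite glia marker and 2 Schwann cell markers were higher and 1 Schwann cell marker lower, and DESeq2 called 0 in these 4 lists. Of 9 endothelial and mural markers, Cdh5, an endothelial cadherin, rose (36.5 ± 3.55 and 46.8 ± 1.71 CPM, SD, n = 4; adjusted p 0.0467, edgeR), and the summed level was 201 to 251 CPM with GFP mRNA and 254 to 300 CPM with Atf4 mRNA. The call of Cdh5 was lost without any 1 of the 8 libraries (0.0508 to 0.117). None of 8 cell cycle markers passed in edgeR, in DESeq2 or at an unadjusted p under 0.05. Of 54 cytosolic ribosomal protein genes, 0 passed in edgeR, 5 were lower at an unadjusted p under 0.05 and DESeq2 called 1. None of 13 mitochondrially encoded genes passed in edgeR (3 lower at an unadjusted p under 0.05, 1 called by DESeq2), 12 of them with a negative fold change, and their summed level ranged from 28267 to 59069 CPM with GFP mRNA and from 25545 to 43308 CPM with Atf4 mRNA. The part of these cell types and of RNA quality in the changes above was not tested.

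Of 22 interferon response genes, 5 rose, 0 fell and 21 had a positive fold change (median 0.63). Over all genes tested, 2.76% rose and 2.09% fell. The interferon list too was chosen with earlier results known, so its count is a description. Isg15, a ubiquitin-like modifier induced by interferon, was at 6.71, 7.63, 5.78 and 13.1 CPM with GFP mRNA and at 30.3, 20.03, 15.3 and 33.4 CPM with Atf4 mRNA. The groups did not overlap, although both varied more than 2-fold within themselves (2.98-fold between them; adjusted p 0.0116, edgeR). Cxcl10, a chemokine, went from 15.9 ± 3.25 to 41.0 ± 9.49 CPM, Rsad2, the antiviral enzyme viperin, from 23.5 ± 5.60 to 52.3 ± 9.24 CPM, Oas1a, a sensor of double-stranded RNA, from 10.1 ± 1.51 to 17.6 ± 1.70 CPM, and Mx2, an antiviral GTPase, from 2.56 ± 0.769 to 7.61 ± 2.03 CPM (SD, n = 4). Their adjusted p ran from 0.00147 for Cxcl10 to 0.00652 for Mx2 (edgeR). Both groups had received a foreign mRNA, and the amounts of mRNA used were not stated. None of the 22 genes passed with siAtf4 (median log2 fold change 0.45).

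Loss of Atf4 offers the counterpart, since the siAtf4 and siCONTROL libraries are separate from the mRNA libraries. Atf4 was at 574 ± 37.2 CPM with siCONTROL and 96.2 ± 23.9 CPM with siAtf4 (SD, n = 4), and 408 genes rose (2.74%) and 620 fell (4.17%) of 14876 tested, 6.91% in either direction. Of the 338 genes that rose with Atf4 mRNA and were tested in both tables, 54 fell with siAtf4 (16%) and 5 rose (1.48%), beside 4.51% and 2.91% of the 13665 genes tested in both. The 54 include Atf4 itself, transfected in the mRNA libraries and targeted in the siRNA libraries, so its opposite call was set by the design. Of the 289 that fell with Atf4 mRNA, 31 rose with siAtf4 (10.7%) and 22 fell (7.61%). Read from the other side, 8.77% of the 616 genes lower with siAtf4 rose with Atf4 mRNA and 3.57% fell. Of the 398 genes higher with siAtf4, 7.79% fell and 1.26% rose. Among all 13665 genes tested in both, 2.47% rose and 2.11% fell with Atf4 mRNA. Across 13664 genes without Atf4, which are not independent replicates, the log2 fold changes had a Pearson r of -0.12 and a Spearman rho of -0.09. The 54 became 32 without Atf4 replicate 2, 35 without Atf4 replicate 4 and 32 without GFP replicate 1, and the 31 became 16, 17 and 17. The 22 became 13, 13 and 12 without Atf4 replicates 2, 3 and 4 and 11 and 14 without GFP replicates 2 and 4. The 5 became 1 without Atf4 replicate 2 or 4 or GFP replicate 2 or 4, 2 without GFP replicate 1, and 3 without Atf4 replicate 1, GFP replicate 3, siAtf4 replicate 1, 3 or 4 or siCONTROL replicate 1 or 4.

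Several genes under the stress response had opposite calls, and the sizes, which come from separate tables, were not compared by a test. With siAtf4 the fall was 5.39-fold for Cth, 2.01-fold for Sesn2, 3.55-fold for Stc2 and 2.78-fold for Slc7a3, beside rises of 4.96, 2.39, 3.62 and 1.78-fold with Atf4 mRNA. Chac1 and Adm2 fell 6.57-fold and 10.7-fold with siAtf4 and rose 1.46-fold and 1.83-fold with Atf4 mRNA. Among the falls with Atf4 mRNA, Inhba went from 61.2 to 223 CPM with siAtf4 (3.64-fold) and Pmaip1 from 36.3 to 107 CPM (2.97-fold). Of the 28 regeneration-associated genes, 4 rose and 4 fell with siAtf4. The 4 that rose, Sprr1a, Stmn4, Smad1 and Basp1, had all fallen with Atf4 mRNA, and their siAtf4 log2 fold changes were 0.52, 0.32, 0.41 and 0.37. Of the 4 that fell, Gpr151, Plaur and Bdnf had also fallen with Atf4 mRNA (siAtf4 log2 fold changes -0.48, -0.34 and -0.35), and Tubb6, a beta tubulin, had not passed with Atf4 mRNA (-0.31 with siAtf4).

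**Figure D5:**
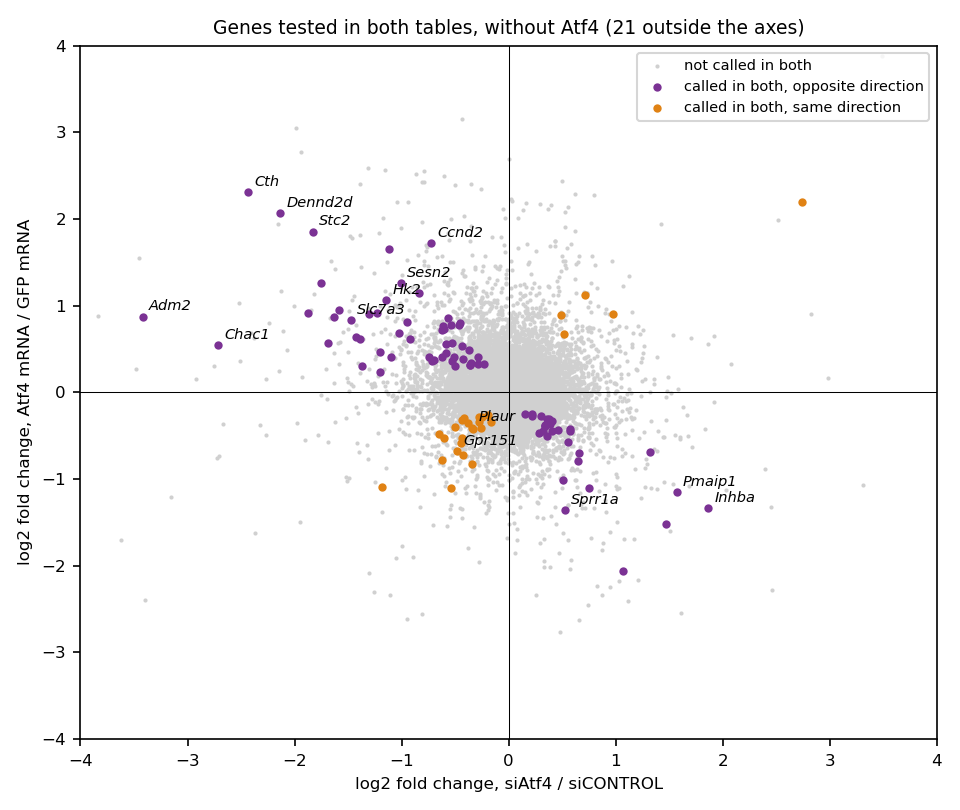
Each point is a gene tested in both tables, Atf4 left out, with its edgeR log2 fold change for siAtf4 over siCONTROL on the x axis and for Atf4 mRNA over GFP mRNA on the y axis; 21 genes lie outside the axes of ±4. Genes called in both are purple where the directions were opposite and orange where they were the same: Cth, Stc2 and Sesn2 stand in the upper left, Inhba and Pmaip1 in the lower right, and the grey mass shows no clear slope.

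When Cebpg mRNA was added to Atf4 mRNA, Cebpg was at 43595 to 94593 CPM and Atf4 at 10449 to 32427 CPM. That group shares the GFP libraries with the comparison above when set against GFP, so its values are given side by side only. Slc7a3 had log2 fold changes against GFP of 0.83 with Atf4 mRNA and 1.505 with both, Cth 2.31 and 2.58, Chac1 0.55 and -0.01, and Sprr1a -1.36 and -1.92. Set directly against Atf4 mRNA alone, where 4.5% of all genes tested were higher and 2.1% lower (6.6% in either direction), 6 of the genes called with Atf4 mRNA had the smallest p. Lmo3, a LIM-only transcriptional regulator, was at 0.330 ± 0.550 CPM with GFP mRNA, 1.78 ± 0.850 with Atf4 mRNA and 57.4 ± 1.28 with both (SD, n = 4). Enpp2, which encodes autotaxin, was at 2.39, 6.94 and 62.4 CPM, Hyls1, a centriole protein, at 5.69, 9.11 and 42.4 CPM, and Cyp4f39, a fatty acid hydroxylase, at 6.41, 18.3 and 59.8 CPM in these 3 groups. Star, which carries cholesterol into mitochondria, rose with Atf4 mRNA and was lower with both, at 96.7, 182 and 25.8 CPM, and Prss37, a trypsin-like protein, likewise at 24.4, 43.6 and 6.30 CPM. All 6 differed between both mRNAs and Atf4 mRNA alone (adjusted p from 1.14e-06 to 1.59e-06, edgeR). They were picked by this p, so its small size follows from the choice and is no further evidence. Lmo3 had enough counts to be tested only through the libraries with both mRNAs. Against GFP mRNA the call of Lmo3 with Atf4 mRNA was lost without any 1 library other than GFP 4 (adjusted p 0.051 to 0.128). That of Hyls1 was lost without Atf4 2, 3 or 4 or GFP 1 or 4 (0.0706 to 0.0949).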

How the data were processed

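Per the submitters' processing notes, the authors used kallisto and the build GRCm39 to make the deposited expected counts (estimated counts per gene). Version, annotation and any scaling are not stated, so levels were not compared between genes. Counts were rounded to whole numbers, filtered by filterByExpr (group as factor), scaled by TMM and compared with the quasi-likelihood test of edgeR 4.0.16 in R 4.3.3, with Benjamini-Hochberg adjustment over all genes tested and a threshold of 0.05. The 12 libraries of the mRNA table were fitted together, and siAtf4 with siCONTROL and 6 further knockdowns (32 libraries). CPM are TMM-scaled, SE is that of the log2 fold change, and ± on CPM is the SD. Sequencing depth sets the precision of genes with few counts. No column was left unused and 0 of 66 library pairs were identical. Ensembl identifiers were matched to symbols through a GRCm38 gene table (32470 of 34183, 95%). The fit was tested on simulated data.

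Members of 30 gene lists were described by counts and medians, without a set test. The rule named the 15 largest rises and 10 largest falls (adjusted p under 0.05, at least 5 CPM in the higher group, no overlap), up to 6 members of each list by p, Atf4, Cebpg and the other knockdown targets, and 6 genes by p against Atf4 plus Cebpg mRNA. A gene that the rule names is not reported here. Lists and rule were chosen with earlier results of these data known. Promoters come from RefSeq (GRCm38.p6). Alternatives were DESeq2 1.42.0, RLE and upper-quartile scaling, no filter, a replicate block, 2 groups only, each library left out in turn and, chosen after seeing the data, leaving out the shallowest library or the transfected genes.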

Additional observations from a re-analysis of the deposited data

Results flagged for a closer look

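Of 250 groups of 4 libraries checked over the named genes, 21 held 1 library far from the other 3; chance gives about 1 in 20 groups. In genes near the limit of detection these were Gulo in GFP replicate 3 (0.206 CPM, 0 in the others), Gm2022 in GFP replicate 3 (1.44 CPM, 0 in the others), Lmo3 in GFP replicate 4 (1.15 CPM, at most 0.173 in the others), Csn3 in GFP replicate 4 (0 CPM, at least 1.03 in the others) and Slco2a1 in GFP replicate 3 (2.06 CPM, at least 2.52 in the others). Krt1 stood high in GFP replicate 2 (4.51 CPM, at most 1.47 in the others) and Saa3 low in Atf4 replicate 3 (10.3 CPM, at least 12.5 in the others).

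Among stress and metabolic genes, GFP replicate 2 was low for Slc7a11 (11.6 CPM, at least 19.7 in the others), which widens the gap to the Atf4 libraries, and high for Sqstm1 (3187 CPM), an autophagy receptor, and Hspb1 (1508 CPM). GFP replicate 4 was low for Aldh1l2 (12.1 CPM) and Ulk1 (31.1 CPM), GFP replicate 1 for the ER chaperone Hyou1 (66.5 CPM), and GFP replicate 3 for Pmaip1 (28.5 CPM) and Jun (271 CPM). Trpv1 was high in GFP replicate 1 (19.9 CPM). In the Atf4 libraries, Sdf2l1 (68.9 CPM) and Dbi (316 CPM) were low in replicate 4, Hsd17b7, of cholesterol synthesis, was low in replicate 2 (26.4 CPM), Gap43 high in replicate 2 (3506 CPM) and Prss12 high in replicate 1 (27.2 CPM).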

How the results depend on the processing

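Of 125 named genes, 99 passed, none of these 99 changed direction in any setting, and 72 passed in every setting. The 382 higher genes ranged from 287 (no filter) to 509 (replicate block), and from 214 to 333 with 1 of the 8 compared libraries left out. The 289 lower genes were 438 with DESeq2, 519 with the block and 125 to 259 with 1 of those 8 left out. Without the shallowest library, Atf4 plus Cebpg replicate 1, there were 418 higher and 354 lower genes. Same-numbered GFP and Atf4 libraries had correlations of 0.13, 0.15, 0.12 and 0.074 in their deviations, and no other pair was above 0.008. Each library thus correlated best with its own number. The main fit left the numbers out, and the labels do not say whether they mark pairs. More genes were called with the numbers as a block, so a test not passed above can depend on that choice. With the block, lists given with 0 calls in a direction gained some: 2 cytosolic tRNA synthetases, 2 ion channels, 2 mitochondrially encoded genes, 2 ribosomal protein genes, 1 ATF or C/EBP factor, 1 stress regulator and 1 glutathione gene were lower, and 2 Schwann cell markers and 1 large-diameter neuron marker higher. Of the named genes, 6 that had not passed in the main fit did pass with the block, while Gm2022 and Lmo3 lost their calls (adjusted p 0.0672 and 0.0681, edgeR). List members numbered 29 higher (21 to 32 with a library left out) and 23 lower (16 to 27). For both mRNAs against Atf4 mRNA, the 624 higher genes became 425 to 630 and the 291 lower genes 128 to 331 with a library left out, 188 without the filter, 477 with the block and 174 with 2 groups only. The siAtf4 counts became 295 to 322 higher and 458 to 564 lower. The 54 genes higher with Atf4 mRNA and lower with siAtf4 ranged from 32 to 57 (88 with the block) and the 31 opposite ones from 16 to 34 (70 with the block). The 5 genes higher in both ranged from 1 to 5, and were 2 without the filter, 13 with the block and 3 with 2 groups only. The 22 lower in both ranged from 11 to 27, and were 37 with DESeq2, 14 without the filter, 67 with the block and 13 with 2 groups only. The upper ends of the list member ranges and of the ranges for genes called in both tables came from leaving out Atf4 plus Cebpg replicate 1. The cause of these shifts was not tested. Depth limits genes with few counts.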

Other observations

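Several genes outside the lists, chosen here after their values were seen, passed the test with Atf4 mRNA. Dgat2, the last enzyme of triglyceride synthesis, was at 17.0, 16.8, 17.3 and 16.9 CPM with GFP mRNA and at 43.1, 46.6, 46.9 and 45.7 CPM with Atf4 mRNA, 2.68-fold higher without overlap (adjusted p 6.83e-06, edgeR). Hk2, hexokinase 2, went from 13.2 ± 0.627 to 27.6 ± 2.28 CPM (SD, n = 4) and fell with siAtf4 by 1.15 on the log2 scale (adjusted p 4.06e-05, edgeR). Tmem109 went from 49.3 ± 2.24 to 90.2 ± 4.27 CPM, and Slc39a9, a zinc transporter, from 37.4 ± 1.56 to 60.8 ± 4.79 CPM. Fbln5, an elastic fibre protein, went from 12.8 ± 0.644 to 38.1 ± 8.21 CPM, Cspg5, a neural proteoglycan, from 2.98 ± 0.655 to 15.9 ± 4.19 CPM, Ccnd2, cyclin D2, from 14.0 ± 1.04 to 46.1 ± 14.9 CPM, and Slco2a1, a prostaglandin transporter, from 2.42 ± 0.244 to 8.54 ± 0.791 CPM. Mmp19, a matrix metalloproteinase, rose by 0.92 with Atf4 mRNA and fell by 1.87 with siAtf4 on the log2 scale.

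Among falls chosen in the same way, Dbi, the acyl-CoA binding protein, was at 579, 667, 577 and 617 CPM with GFP mRNA and at 388, 385, 383 and 316 CPM with Atf4 mRNA, without overlap (log2 fold change -0.73 ± 0.08, SE; adjusted p 0.000194, edgeR). It was lower with siAtf4 too (log2 fold change -0.42, adjusted p 0.0185, edgeR). Prss12, the serine protease neurotrypsin, went from 49.8 ± 3.47 to 25.6 ± 1.07 CPM and Ano4, an anoctamin, from 41.5 ± 4.55 to 20.6 ± 0.888 CPM (SD, n = 4). Dusp9, a MAP kinase phosphatase, and Slc17a6, the vesicular glutamate transporter VGLUT, fell by 1.10 and 0.36 on the log2 scale, and rose with siAtf4 by 0.75 and 0.37.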
